A study of Mus musculus with 9 samples.

Results

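Chromatin accessibility was followed at 8 Wnt effector and inhibitor genes: Ctnnb1, Tcf7, Tcf7l1, Tcf7l2, Lef1, Axin2, Dkk1 and Sfrp1. They were picked by name from the 37273 genes of the annotation, and the window of each ran from 10 kb upstream of its transcription start site (TSS) to 10 kb past its end. ATAC-Seq, in which the Tn5 transposase cuts open chromatin, was read as peak calls of 9 libraries, with 1 library per condition and no replicates. D0 was unsorted mouse embryonic fibroblasts (MEFs), which the study took from Oct4-GFP embryos and grew in DMEM with fetal bovine serum. D3, D6T−, D9T−, D12S+ and D16S+ were cells 3, 6, 9, 12 and 16 days after infection with pMXs retroviruses carrying Oct4, Sox2, Klf4 and c-Myc. D3 was unsorted, T− cells were Thy-1-negative and S+ cells were SSEA-1-positive, and iPSCs were the unsorted pluripotent line. D6 siNT and D6 siH3.3 were day 6 cells that had also received non-targeting siRNA or siRNA against histone H3.3 and that the labels give as Thy-1-. According to the study, this siRNA was given before reprogramming began and the knockdown was transient. The labels give a feeder-free medium, with LIF, bFGF, ascorbic acid and 3 uM CHIR99021 during reprogramming, for every condition except D0, while the study's methods also name media without this compound for reprogramming and for iPSCs. CHIR99021 inhibits GSK3 and so stabilises β-catenin, and where it was present its effect cannot be told apart from that of the 4 factors in a comparison with D0. Across the 9 libraries, 148 joined regions lay in the windows of the 8 genes, of 210151 on the assembled chromosomes, and 141990 lay in the windows of all protein-coding genes.

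In canonical Wnt signalling, a destruction complex built on Axin and Apc marks β-catenin for degradation through GSK3, and Wnt ligands that bind Frizzled and Lrp receptors stop this. Stabilised β-catenin, the product of Ctnnb1, enters the nucleus and joins the DNA-binding proteins encoded by Tcf7 (TCF1), Tcf7l1 (TCF3), Tcf7l2 (TCF4) and Lef1. In mouse pluripotent stem cells Tcf7l1 is known chiefly as a repressor whose release by β-catenin favours self-renewal. Axin2 is a target of the pathway that feeds back on it, Dkk1 is a secreted antagonist of Lrp receptors and Sfrp1 is a secreted Frizzled-related protein that binds Wnt ligands.

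Total tags ranged from 13213117 (D9T−) to 31714845 (D0), and the number of regions from 36708 (D9T−) to 133132 (D6T−). Signal is given as CPM, the highest number of extended tags over a summit per 1000000 tags of the library. Its exact 95% Poisson interval covers counting error only. With 1 library per condition, it leaves out differences between cultures and between library preparations. The lowest pileup called was between 7 and 11 tags, or 0.331 to 0.53 CPM, and weaker openings were not detectable. The level of promoters as a whole differed between libraries. Over the 9818 protein-coding genes with a promoter region in every library, the median promoter summit was 0.946 CPM at D0, 2.28 in D3, 3.83 in D6T−, 1.51 in D9T−, 2.44 in D12S+, 2.31 in D16S+ and 1.2 in iPSCs. It was 1.38 CPM in D6 siNT and 1.45 in D6 siH3.3, so that the day 6 libraries differed among themselves by more than D0 and iPSCs did. Each value is therefore also given as a relative level, the CPM over this library median. On the relative scale the lowest call was 0.367 in D0, 0.35 in D9T− and 0.312 in iPSCs, but 0.0976 in D6T−, so a weak region could be called at D6T− and missed at D0. Of 7 fibroblast markers, 7 had a promoter region at D0 and D3, 6 in D6T−, D12S+ and D16S+, 4 in iPSCs and D6 siH3.3, and 3 in D9T− and in D6 siNT. Of the 7 pluripotency markers, 2 had one at D0 (Esrrb and Pou5f1) and 7 did in each of D12S+, D16S+ and iPSCs. Pou5f1 did not rise with them: it had 13.1 CPM at D0 and 14.4 in iPSCs, 0.863 of the D0 level on the relative scale. Nanog, Zfp42 and Dppa5a had none before D12S+. Of 3 blood markers, Ptprc had none in any library, Csf1r had one at D3 and D6T−, and Cd68 had one in all 9.

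The accessible sequences on which the results turn are printed here, each taken 100 bases to either side of the summit of the library with the highest CPM, on the forward strand of mm9 (NCBIM37). Capitals mark matches on either strand to the TCF/LEF motif CTTTGAT, the AP-1 motif TGANTCA, the octamer ATGCAAAT or the SOX motif CATTGTT, none of which overlap in these windows. They were chosen after their values were seen. The first pair was brightest in the later cells and the next 3 were brightest up to D6T−. The others are the Tcf7 promoter, an intronic region of Axin2 and a region upstream of Ctnnb1. None overlapped an annotated exon.
Lef1, 8.07 kb upstream of the TSS (chr3:130805222-130805422): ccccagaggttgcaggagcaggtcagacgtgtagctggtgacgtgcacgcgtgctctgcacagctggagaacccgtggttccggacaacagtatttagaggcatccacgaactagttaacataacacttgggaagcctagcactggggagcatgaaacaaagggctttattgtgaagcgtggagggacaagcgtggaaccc
Tcf7l1, intron, 112 kb into the gene (chr6:72627601-72627801): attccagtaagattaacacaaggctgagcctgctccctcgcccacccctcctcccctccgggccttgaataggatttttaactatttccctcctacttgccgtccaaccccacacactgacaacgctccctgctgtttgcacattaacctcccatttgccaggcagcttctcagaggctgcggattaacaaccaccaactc
Sfrp1, intron, 17.4 kb into the gene (chr8:24539289-24539489): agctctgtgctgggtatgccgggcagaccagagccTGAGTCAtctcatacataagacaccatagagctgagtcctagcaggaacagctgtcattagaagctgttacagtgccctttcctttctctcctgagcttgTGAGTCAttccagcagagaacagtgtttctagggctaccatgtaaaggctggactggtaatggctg
Tcf7l2, intron, 53.8 kb into the gene (chr19:55869957-55870157): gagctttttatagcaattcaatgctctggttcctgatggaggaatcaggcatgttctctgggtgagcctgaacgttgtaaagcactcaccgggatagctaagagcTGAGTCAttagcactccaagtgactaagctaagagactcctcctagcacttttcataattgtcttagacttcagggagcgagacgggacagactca
Tcf7, intron, 22.1 kb into the gene (chr11:52074517-52074717): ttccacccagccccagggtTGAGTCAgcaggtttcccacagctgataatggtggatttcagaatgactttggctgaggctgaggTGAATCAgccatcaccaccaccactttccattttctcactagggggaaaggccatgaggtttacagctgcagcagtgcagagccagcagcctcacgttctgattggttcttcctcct
Tcf7, promoter, 0.219 kb upstream of the TSS (chr11:52096800-52097000): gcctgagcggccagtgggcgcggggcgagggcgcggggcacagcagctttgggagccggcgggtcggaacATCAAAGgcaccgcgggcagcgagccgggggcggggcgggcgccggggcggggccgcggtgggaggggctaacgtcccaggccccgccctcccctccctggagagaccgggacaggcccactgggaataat
Axin2, intron, 5.02 kb into the gene (chr11:108786580-108786780): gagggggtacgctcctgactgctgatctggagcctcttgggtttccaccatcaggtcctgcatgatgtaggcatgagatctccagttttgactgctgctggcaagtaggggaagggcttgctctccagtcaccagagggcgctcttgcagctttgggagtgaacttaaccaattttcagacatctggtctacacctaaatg
Ctnnb1, 9.86 kb upstream of the first TSS (chr9:120828378-120828578): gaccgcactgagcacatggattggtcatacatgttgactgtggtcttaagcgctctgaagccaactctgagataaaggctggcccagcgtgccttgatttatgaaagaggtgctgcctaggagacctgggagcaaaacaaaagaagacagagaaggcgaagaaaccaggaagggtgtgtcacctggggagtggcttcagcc

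At the promoters, defined as the stretch of 3 kb before each annotated TSS, 5 of the 8 genes had a region in every library. So did 29.6% of all annotated genes, coding or not, and 9818 of the 22367 protein-coding genes. The 5 were Ctnnb1, Tcf7l1, Tcf7l2, Axin2 and Sfrp1. Tcf7 lacked one at D0 and in D6 siH3.3, Lef1 in D0 and D9T−, and Dkk1 in all libraries but D6T− and D16S+. The 8 genes thus fell into a group of 4 with signal close to the median promoter of its library, Sfrp1 with the widest range among the 5, and 3 whose promoters stayed below the library median and were not called in every library.

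**Figure D1:**
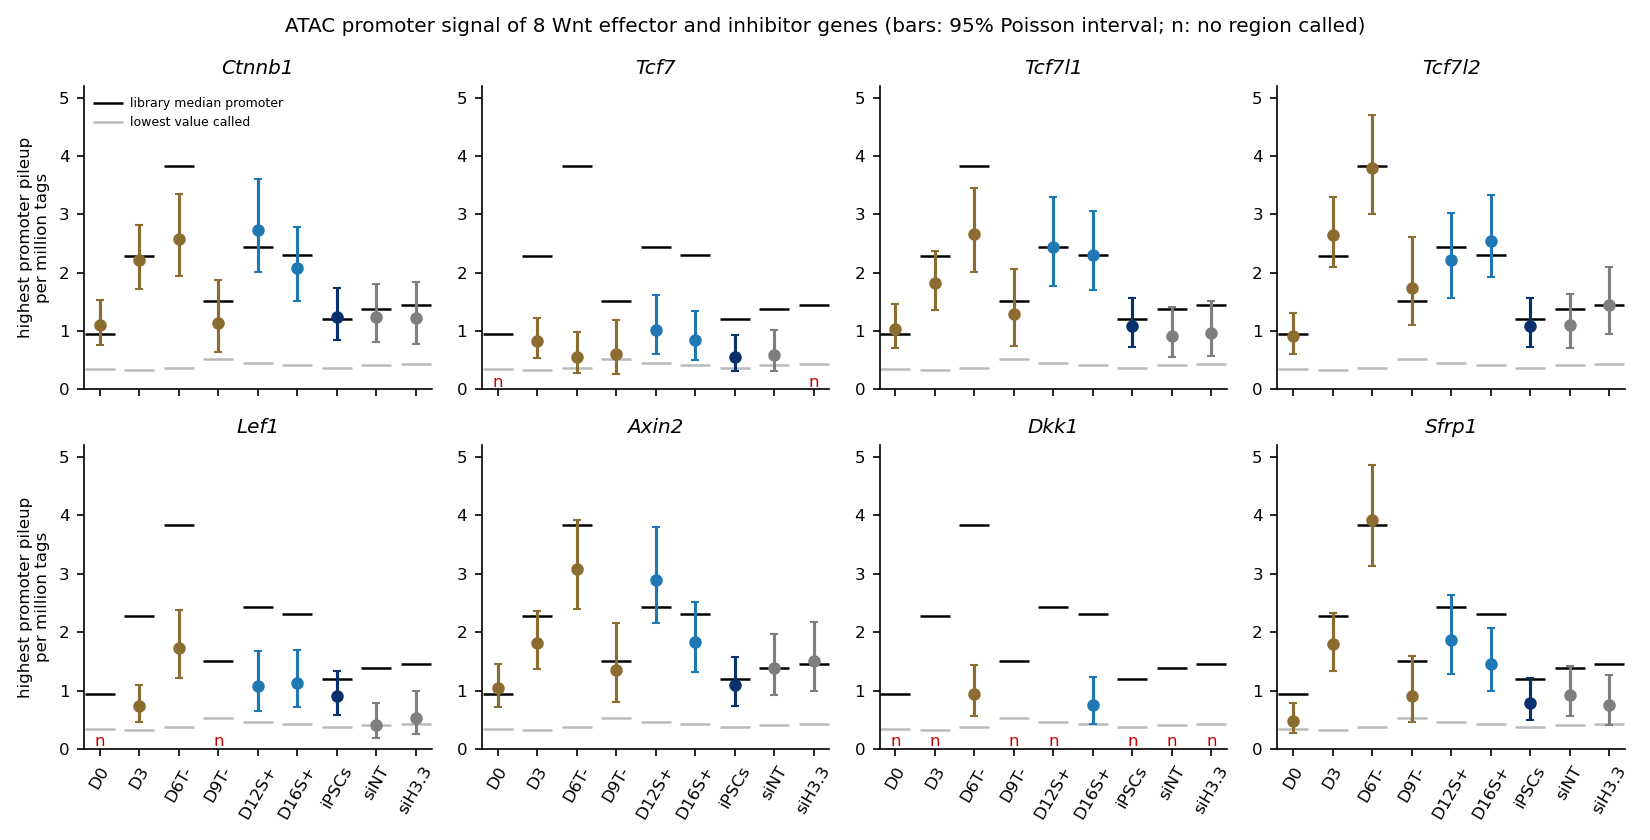
Promoter signal in CPM (y axis) of each of the 8 genes in the 9 libraries (x axis), 1 library per point, with bars for the 95% Poisson interval. Black dashes are the median promoter of the library and grey dashes its lowest call. Ctnnb1, Tcf7l1, Tcf7l2 and Axin2 follow the black dashes, while Tcf7, Lef1 and Dkk1 stay below them in every library.

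Ctnnb1 (ENSMUSG00000006932.9, chromosome 9, 120838334 to 120869625, forward strand) encodes β-catenin itself. Its promoter summit had 1.1 CPM at D0, 2.22 in D3, 2.57 in D6T−, 1.14 in D9T−, 2.73 in D12S+, 2.08 in D16S+ and 1.24 in iPSCs, with 1.24 in D6 siNT and 1.23 in D6 siH3.3. The highest and lowest values belonged to D12S+ (48 tags, interval 35.4 to 63.6) and D0 (35 tags, interval 24.4 to 48.7). Relative to the library median, the order was different: D0 was highest at 1.17 and D6T− lowest at 0.671. The summit did not lie at the first annotated TSS but 4152 to 4223 bases inside, at positions -36 to 24 from the start of other transcripts in the 9 libraries. A long non-coding gene, 4930593C16Rik, has its promoter over the same region, and the signal of the 2 genes there cannot be told apart.

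Tcf7l1 (ENSMUSG00000055799.6, chromosome 6, 72576372 to 72739248, reverse strand) had promoter values of 1.04 CPM at D0, 1.82 in D3, 2.66 in D6T−, 1.29 in D9T−, 2.44 in D12S+, 2.31 in D16S+ and 1.09 in iPSCs. D6 siNT had 0.918 CPM and D6 siH3.3 had 0.964. The relative level ran from 0.667 in both siRNA libraries to 1.1 in D0 and was 0.906 in iPSCs, so the promoter of this repressor was near the library median at the start and at the end. Tcf7l2 (ENSMUSG00000024985.11, chromosome 19, 55816300 to 56008144, forward strand) had 0.914 CPM at D0, 2.65 in D3, 3.79 in D6T−, 1.74 in D9T−, 2.21 in D12S+, 2.55 in D16S+ and 1.09 in iPSCs, with 1.1 in D6 siNT and 1.45 in D6 siH3.3. It stayed between 0.8 (D6 siNT) and 1.16 (D3) of the library median. Its summit lay at positions -160 to -12 from the TSS. Both genes therefore kept an open main promoter throughout.

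Lef1 and Tcf7, whose proteins are known mostly from lymphocytes and developing tissues, had weaker promoters. No promoter region of Lef1 (ENSMUSG00000027985.8, chromosome 3, 130813389 to 130927274, forward strand) was called at D0 or D9T−. It had 0.728 CPM at D3, 1.73 in D6T−, 1.08 in D12S+, 1.13 in D16S+ and 0.903 in iPSCs, with 0.413 in D6 siNT and 0.536 in D6 siH3.3. The relative level was 0.319 in D3, 0.451 in D6T−, 0.442 in D12S+, 0.49 in D16S+ and 0.75 in iPSCs (24 tags, interval 0.481 to 1.12), the highest of the 9 libraries. In D3, D6T−, D12S+, D16S+ and iPSCs the summit lay 1893 to 1978 bases inside the gene, upstream of another protein-coding start. In D6 siNT it lay at the first TSS, so the siRNA libraries were measured at different places. A further promoter region at the first TSS had 0.562 CPM at D3, 0.374 in D6T−, 0.795 in D12S+, 1.09 in D16S+ and 0.64 in iPSCs. Tcf7 (ENSMUSG00000000782.8, chromosome 11, 52065873 to 52096681, reverse strand) had 0.827 CPM at D3, 0.561 in D6T−, 0.605 in D9T−, 1.02 in D12S+, 0.85 in D16S+, 0.564 in iPSCs and 0.597 in D6 siNT. On these 8 to 25 tags the intervals of the CPM overlapped. The relative level ran from 0.146 in D6T− (interval 0.0756 to 0.256) to 0.469 in iPSCs (interval 0.262 to 0.773), and these 2 intervals did not overlap.

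Among the inhibitors, Axin2 (ENSMUSG00000000142.9, chromosome 11, 108781663 to 108812097, forward strand) had 1.04 CPM at D0, 1.82 in D3, 3.09 in D6T−, 1.36 in D9T−, 2.9 in D12S+, 1.84 in D16S+, 1.09 in iPSCs, 1.38 in D6 siNT and 1.5 in D6 siH3.3. Its relative level, 1.1 in D0 and 0.906 in iPSCs, was highest at D12S+ with 1.19 and lowest at D16S+ with 0.796. The promoter of this feedback target was thus open in the fibroblasts too. Dkk1 (ENSMUSG00000024868.8, chromosome 19, 30620353 to 30624155, reverse strand) had a promoter region only at D6T− (20 tags, 0.935 CPM) and D16S+ (16 tags, 0.756 CPM). Its summit at D6T− lay 0.148 kb inside the gene, and the same joined region was called without reaching the interval upstream of the TSS at D3 (0.463 CPM), D9T− (0.757 CPM) and in iPSCs (0.564 CPM). It was called in no form at D0, at D12S+ or in either siRNA library, where the lowest calls were 0.347, 0.454, 0.413 and 0.429 CPM.

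Sfrp1 (ENSMUSG00000031548.7, chromosome 8, 24521974 to 24560104, forward strand) had the promoter with the widest range. It had 0.473 CPM at D0 (15 tags, interval 8.4 to 24.7), 1.79 in D3 (54 tags), 3.93 in D6T− (84 tags, interval 67 to 104), 0.908 in D9T−, 1.87 in D12S+, 1.46 in D16S+ and 0.79 in iPSCs (21 tags, interval 13 to 32.1). D6 siNT had 0.918 CPM and D6 siH3.3 had 0.75. On the relative scale it was 0.5 in D0, 0.783 in D3, 1.02 in D6T−, 0.6 in D9T−, 0.767 in D12S+, 0.633 in D16S+ and 0.656 in iPSCs. The relative level was 0.667 in D6 siNT and 0.519 in D6 siH3.3, so the high value of D6T− was not met in the other day 6 libraries.

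Promoters were compared between pairs of libraries, and a promoter was called changed when the signal differed by 2-fold or more, with the lowest call in place of a missing region. There is no replicate check on any of these ratios. In CPM, 5 of the 7 genes with a region in either library were higher at D3 than at D0, as were 53.4% of all genes. At D6T− it was 7 of 8, Tcf7 being the exception, against 80.5% of all genes. At D16S+ it was 6 of 8, all but Ctnnb1 and Axin2, against 58.3%. In iPSCs it was Lef1 alone of 7, against 15.5%. No member was lower in any of them. The counts for D3, D6T− and D16S+ are thus near what all promoters showed.

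On the relative scale no member passed at D3, where 2.04% of genes were higher and 12.8% lower. At D6T− only Sfrp1 was higher (2.05-fold), against 2.33% of genes higher and 13.7% lower, and its ratio lay at the 98.7 percentile of genes with a region in both libraries. Its intervals just overlapped, from 0.28 to 0.825 in D0 and from 0.817 to 1.27 in D6T−. No member passed at D16S+, where 5.68% of genes were higher and 17% lower. In iPSCs Lef1 was higher, at least 2.05-fold over the lowest call of D0, against 6.65% of genes higher and 6.87% lower. With equal numbers of the strongest regions from every library this call was lost (0 of 7). Ctnnb1 was 0.884, Tcf7l1 0.824, Tcf7l2 0.938 and Axin2 0.824 of their relative level at D0. The comparisons with D0 share that library.

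**Figure D2:**
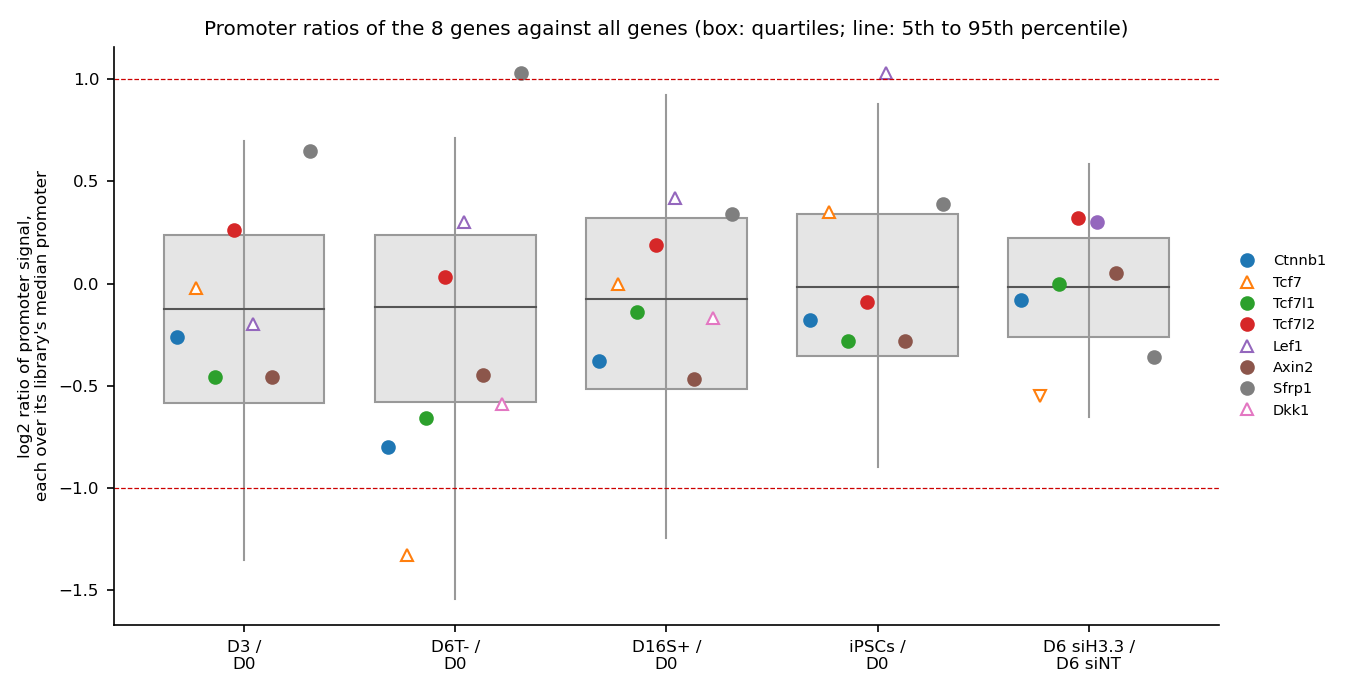
Log2 ratio of the promoter signal (y axis), each value first divided by the median promoter of its library, in 5 comparisons (x axis). Filled points are genes with a region in both libraries and open triangles are bounds set with the lowest call; boxes are the quartiles of all genes, lines the 5th to 95th percentile and red dashes the 2-fold limits. Sfrp1 in D6T− (log2 ratio 1.03) and the Lef1 bound in iPSCs (1.03) lie past the limit, while the open Tcf7 triangle below it at D6T− is a bound and no call.

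Away from the promoters the genes differed more. Of the 148 joined regions, 96 lay in introns, 10 over exons, 15 upstream, 7 downstream and 20 in promoters, and 65 were called in 1 library only. The share called in 1 library only was not counted over the windows of all protein-coding genes, so the 65 are not set apart from other genes. Only 6 were called in all 9 libraries (7.83% of the regions in the windows of all protein-coding genes were), namely the main promoters of Ctnnb1, Tcf7l1, Tcf7l2, Axin2 and Sfrp1 and a region 3′ of Tcf7l1 that is the promoter of its neighbour Tgoln1. The windows held 45 regions at D0, 76 in D3, 84 in D6T−, 23 in D9T−, 42 in D12S+, 47 in D16S+ and 68 in iPSCs. These counts are before joining across libraries. They came to 5.53 per 10000 regions of the library in D0 and 11 in iPSCs, with 6.31 in D6T− and 9.24 in D16S+.

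The window of Tcf7l2, promoters included, held 8 regions at D0, 22 in D3, 24 in D6T−, 6 in D9T−, 6 in D12S+, 4 in D16S+ and 10 in iPSCs. The libraries as wholes had 81364 regions at D0, 107765 in D3, 133132 in D6T−, 50890 in D16S+ and 61615 in iPSCs, and D6T− could call weaker regions than iPSCs on the relative scale (0.0976 against 0.312), and the part of both in these counts was not tested. Called at D0, D3 and D6T− and in none of D12S+, D16S+ and iPSCs were 7 of its 32 regions, all intronic, against 6.51% in the windows of protein-coding genes. The 8 genes together had 11 such regions, 2 of the others in Tcf7l1, 1 in Tcf7 and 1 in Axin2. The strongest at D0 was the region 53.8 kb into the gene printed above, with 1.23 CPM at D0 (39 tags, interval 0.874 to 1.68), 0.794 in D3 and 1.59 in D6T−. It was also called in D6 siNT with 0.734 CPM and in no other library, and its relative level at D0, 1.3, was at least 4.16-fold over the lowest call in iPSCs. In D6T− its relative level was 0.415. Other regions were first called after D0. That at 126 kb had 1.19 CPM at D3, 1.92 in D6T−, 1.44 in D9T−, 0.738 in D12S+, 0.734 in D6 siNT and 0.911 in D6 siH3.3. That at 46.6 kb had 2.1 CPM at D6T−, 0.984 in D9T−, 0.826 in D6 siNT and 0.643 in D6 siH3.3. Neither was called at D16S+ or in iPSCs. On the relative scale the region at 126 kb was 0.522 in D3, 0.5 in D6T− and 0.95 in D9T−. That at 46.6 kb was 0.549 in D6T− and 0.65 in D9T−. The lowest D0 call was 0.367 on this scale, and weaker openings would have been missed at D0. The main promoter thus kept its relative level while these intronic regions were no longer called.

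**Figure D3:**
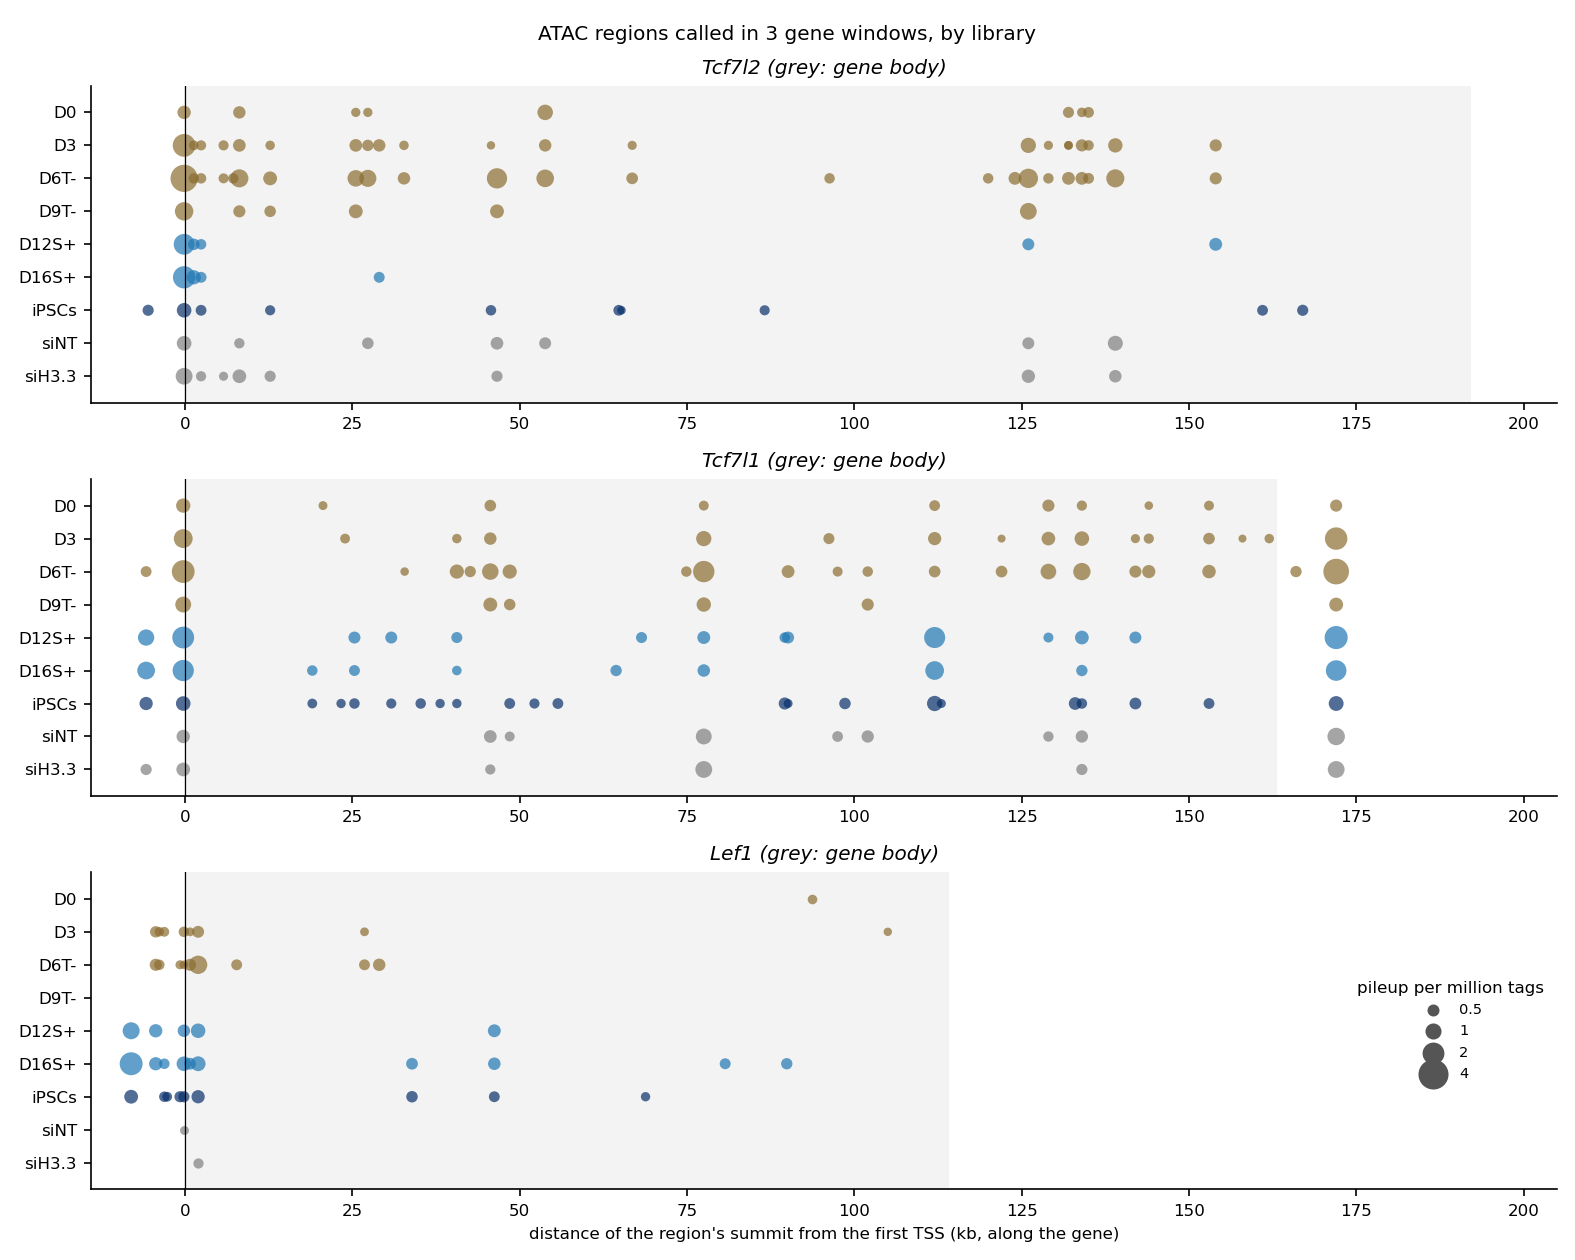
Regions called in the windows of Tcf7l2, Tcf7l1 and Lef1, with the distance of the summit from the first TSS along the gene in kb (x axis), the 9 libraries in rows, and circle area for CPM. Tcf7l2 has 24 regions at D6T− and 4 in D16S+, Tcf7l1 has 23 in iPSCs, and the large Lef1 circles 8.07 kb upstream appear in D12S+, D16S+ and iPSCs.

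The window of Lef1 held 1 region at D0, 8 in D3, 9 in D6T−, 0 in D9T−, 5 in D12S+, 11 in D16S+ and 9 in iPSCs. A region 8.07 kb upstream of its TSS was called only at D12S+ (26 tags, 1.48 CPM, interval 0.964 to 2.16), D16S+ (57 tags, 2.69 CPM, interval 2.04 to 3.49) and in iPSCs (26 tags, 0.978 CPM, interval 0.639 to 1.43). At D16S+ it was stronger than the Lef1 promoter itself. The D16S+ value was at least 7.2-fold over the lowest call of D6T− in CPM and at least 11.9-fold on the relative scale, and D6T− had the lowest relative call of all libraries. Against the lowest call of D0 it was at least 7.76-fold in CPM and at least 3.17-fold on the relative scale. The relative level, 0.605 in D12S+, 1.16 in D16S+ and 0.812 in iPSCs, had overlapping intervals between D16S+ and iPSCs. An intronic region of Lef1, 46.2 kb into the gene, followed the same calls with 0.852, 0.803 and 0.602 CPM. Regions called at D12S+, D16S+ and in iPSCs and at none of D0, D3, D6T− and D9T− numbered 4 in all, against 1.4% in the windows of protein-coding genes. The remaining pair was an intronic region of Tcf7l1 at 25.3 kb (0.738, 0.614 and 0.564 CPM) and a region over an exon of Axin2 at 23.6 kb (0.738, 0.614 and 0.79 CPM). Apart from the region 8.07 kb upstream of Lef1, these had relative levels of 0.265 to 0.349 at D12S+ and D16S+. In iPSCs they had 0.469 to 0.656. The lowest calls were 0.367 in D0 and 0.35 in D9T−, so the levels of D12S+ and D16S+ would have been missed there.

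Of the 40 regions of Tcf7l1, 2 followed the early calls described for Tcf7l2 and 1 the late calls described for Lef1. Those described next followed neither in full. The intronic region at 112 kb had 0.599 CPM at D0, 0.893 in D3, 0.701 in D6T−, 2.27 in D12S+ (40 tags, interval 1.62 to 3.09), 1.79 in D16S+ and 1.2 in iPSCs. It was called neither at D9T− nor in the siRNA libraries. On the relative scale it was 0.633 in D0, 0.391 in D3 and 0.183 in D6T−, then 0.93 in D12S+, 0.776 in D16S+ and 1 in iPSCs, and D12S+ exceeded D6T− 5.09-fold without overlap of the intervals. The intervals of D0 and iPSCs overlapped. A region 5.83 kb upstream of the TSS had 0.608 CPM at D6T−, 1.36 in D12S+, 1.61 in D16S+, 0.903 in iPSCs and 0.643 in D6 siH3.3, and was not called at D0, D3, D9T− or in D6 siNT. The intronic region at 77.5 kb had 0.504 CPM at D0, 1.19 in D3, 2.34 in D6T−, 1.06 in D9T−, 0.852 in D12S+, 0.803 in D16S+, 1.29 in D6 siNT and 1.45 in D6 siH3.3. It was not called in iPSCs. On the relative scale it was 0.533 in D0, 0.522 in D3, 0.61 in D6T−, 0.7 in D9T−, 0.349 in D12S+ and 0.347 in D16S+. The siRNA libraries had 0.933 in D6 siNT and 1 in D6 siH3.3. The lowest iPSC call was 0.312, and the D6T− level was at least 1.95-fold over it.

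**Figure D4:**
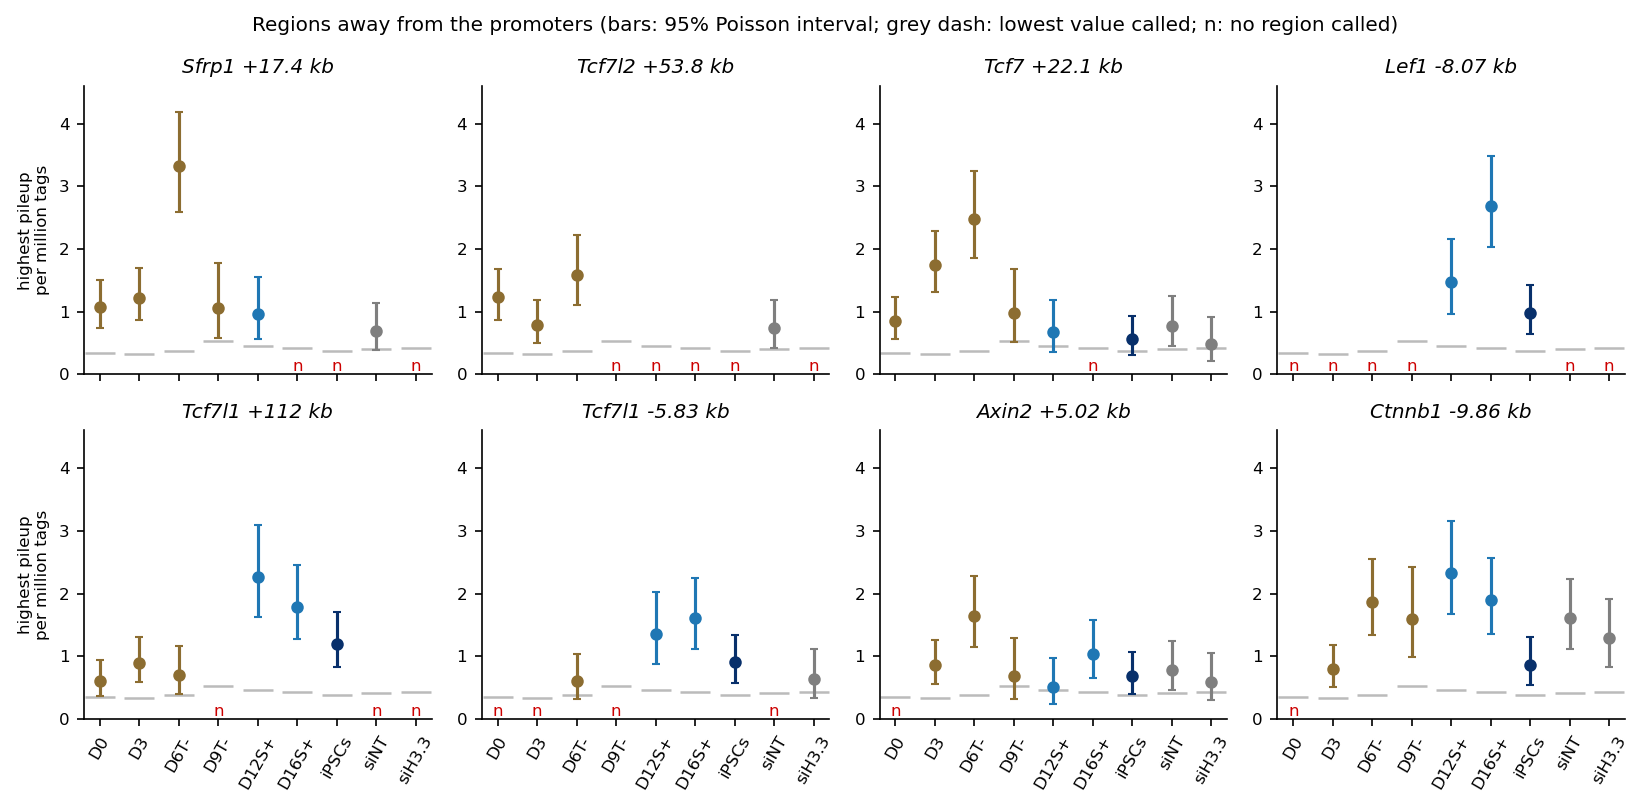
Signal in CPM (y axis) in the 9 libraries (x axis) at 8 regions away from the promoters, 1 library per point with the 95% Poisson interval, named by gene and distance from the first TSS. The first 3 panels, Sfrp1, Tcf7l2 and Tcf7, peak in CPM at D6T− with 3.32, 1.59 and 2.48, and the Lef1 region is called only from D12S+ on. Relative to the library median, the regions of these first 3 panels are highest at D0 (1.13, 1.3 and 0.9). At D6T− they have 0.866, 0.415 and 0.646.

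An intronic region of Sfrp1, 17.4 kb into the gene, followed the fibroblast side. It had 1.07 CPM at D0 (34 tags), 1.22 in D3, 3.32 in D6T− (71 tags, interval 2.59 to 4.19), 1.06 in D9T−, 0.965 in D12S+ and 0.689 in D6 siNT. It was not called at D16S+, in iPSCs or in D6 siH3.3. At D0 it was stronger than the promoter, 1.13 against 0.5 of the library median, and the D0 level was at least 3.63-fold over the lowest iPSC call on the relative scale. Its relative level in D6T− was 0.866 (interval 0.676 to 1.09), not above that of D0 (interval 0.785 to 1.58). The intronic region of Tcf7 at 22.1 kb reached the highest CPM of its window, with 0.851 CPM at D0, 1.75 in D3, 2.48 in D6T−, 0.984 in D9T−, 0.681 in D12S+, 0.564 in iPSCs, 0.78 in D6 siNT and 0.482 in D6 siH3.3. Relative to the library median it was highest at D0 with 0.9, against 0.646 in D6T−. It was above the Tcf7 promoter in D3, D6T−, D9T− and D6 siNT, and called without it in D0 and D6 siH3.3. The promoter was higher in D12S+, and the region was not called in D16S+. Of the 24 regions of Tcf7, 14 were called in 1 library only.

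At Axin2, an intronic region 5.02 kb into the gene was called in every library but D0. It had 0.86 CPM at D3, 1.64 in D6T−, 0.681 in D9T−, 0.511 in D12S+, 1.04 in D16S+, 0.677 in iPSCs, 0.78 in D6 siNT and 0.589 in D6 siH3.3. The D3 value was at least 2.48-fold over the lowest D0 call in CPM but at least 1.03-fold on the relative scale. Its relative level of 0.377 (interval 0.246 to 0.552) thus lay just above that call of 0.367, within counting error of it. The region 9.86 kb upstream of Ctnnb1 was likewise missing at D0 alone. It had 0.794 CPM at D3, 1.87 in D6T−, 1.59 in D9T−, 2.33 in D12S+, 1.89 in D16S+, 0.865 in iPSCs, 1.61 in D6 siNT and 1.29 in D6 siH3.3. Here the D9T− level was at least 2.86-fold and the D12S+ level at least 2.6-fold over the lowest D0 call on the relative scale, while that of D3 was 0.949 of it.

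Between the start and the end of the course, 30 of the 148 regions were called at D0 and not in iPSCs, and 53 in iPSCs and not at D0. In the windows of all protein-coding genes these shares were 25.2% and 17.5%. By gene, regions of iPSCs alone in this pair numbered 17 of 40 in Tcf7l1, 9 of 19 in Lef1, 9 of 32 in Tcf7l2, 8 of 13 in Axin2, 5 of 24 in Tcf7, 2 of 8 in Ctnnb1, 2 of 4 in Dkk1 and 1 of 8 in Sfrp1. Those of D0 alone numbered 8 in Tcf7, 7 in Tcf7l2, 5 in Sfrp1, 5 in Tcf7l1, 3 in Axin2, 1 each in Lef1 and Dkk1 and 0 in Ctnnb1. When a 2-fold difference in relative level was asked for, a setting chosen after seeing the data, 9 regions were higher at D0 and 4 in iPSCs, against 9.42% and 2.14% in the windows of protein-coding genes. The 4 were the Lef1 region 8.07 kb upstream, the Lef1 promoter region at the second start, the Tcf7l1 region 5.83 kb upstream and an Axin2 region 9.27 kb upstream. The 9 included 4 of Tcf7l2, the Sfrp1 intronic region and 2 of Tcf7l1.

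For the knockdown of H3.3, a histone variant deposited at active genes outside replication, no member promoter differed by 2-fold between D6 siH3.3 and D6 siNT, where 1.08% of genes were higher and 1.07% lower. The study describes this knockdown as limited to the early phase, and the H3.3 level at day 6 cannot be read from these libraries. The relative level of D6 siH3.3 over D6 siNT was 0.947 for Ctnnb1, 1 for Tcf7l1, 1.25 for Tcf7l2, 1.23 for Lef1, 1.04 for Axin2 and 0.778 for Sfrp1, and the intervals of the pileups overlapped in all 6. For Lef1 the summit lay at the first TSS in D6 siNT and 1502 bases inside the gene in D6 siH3.3. Its ratio therefore compares different regions and does not measure a change at either. The Tcf7 promoter was called in D6 siNT with 13 tags and not in D6 siH3.3, whose lowest call was 8 tags. Of the joined regions in the windows, 27 were called in D6 siNT and 24 in D6 siH3.3, with 18 in both. Those of D6 siNT alone numbered 9 of 148 and those of D6 siH3.3 alone 6, against 4.46% and 4.63% in the windows of protein-coding genes. All 33 regions of either were also called at D6T−, which had 79. D6T− had 133132 regions in all and a lowest relative call of 0.0976, against 0.3 in D6 siNT and 0.296 in D6 siH3.3. Neither this overlap nor that of the 18 was counted over the windows of all protein-coding genes. Regions of D6 siNT alone included the intronic regions of Sfrp1 at 17.4 kb (15 tags) and Tcf7l2 at 53.8 kb (16 tags). Regions of D6 siH3.3 alone included the Tcf7l1 region 5.83 kb upstream (12 tags). With 1 library each, such differences have no check.

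The letters around the summits were searched, 100 bases to each side. The TCF/LEF motif CTTTGAT was found in 5 of the 148 regions (3.38%) and in 2.56% of all regions. The 5 were a pair of regions at the Tcf7 promoter, the Axin2 promoter, a weak intronic Axin2 region called at D0 alone and an intronic Lef1 region at 26.8 kb. In the Tcf7 promoter printed above the match lay at bases 71 to 77, on the reverse strand. The AP-1 motif TGANTCA, read by the Fos and Jun proteins, stood in 26 regions (17.6%), against 24.3% of all regions. It was found in 9 of 32 regions of Tcf7l2 and 8 of 40 of Tcf7l1. Of the 11 regions called at D0, D3 and D6T− but in none of D12S+, D16S+ and iPSCs, 4 held it, against 53% of such regions in the windows of protein-coding genes. Of the 4 late regions 0 did, against 5.44%. The Sfrp1 intronic region held 2 matches, at bases 36 to 42 and 136 to 142, as did the Tcf7 intronic region, at bases 20 to 26 and 85 to 91. The Tcf7l2 region at 53.8 kb held 1, at bases 106 to 112. The octamer ATGCAAAT stood in 5 regions (1.72% of all regions) and the SOX motif CATTGTT in 5 (4.04% of all regions). A match is a description of the letters and not a bound site.

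The genes whose promoter values were most alike over the 9 libraries were sought by Pearson's r of log2(CPM + 0.25), among 15752 protein-coding genes. For Ctnnb1 they were Gm13697, Dpp8 (both r = 0.992) and Hexim2 (0.991). For Tcf7l1 they were Btbd1 (0.991), Btrc (0.989), which encodes a ubiquitin ligase subunit that recognises marked β-catenin, and Polr1c (0.988). For Tcf7l2 they were Apom, Bag6 and 2700060E02Rik (all 0.993), and for Axin2 Gne (0.995), Mbtps1 (0.993) and D10Wsu102e (0.985). For Sfrp1 they were Atf5, Il4i1 and Nup62 (all 0.994), which share a promoter region and so 1 set of values. Such r values were common: 25.8% of candidates passed 0.9 with Tcf7l2 and 29.5% with Sfrp1. They were rarer for the weak promoters, with 1.79% for Lef1 (AI118078 0.993, Usp43 0.992 and Ubr1 0.99) and 0.4% for Tcf7 (Clk1 0.974, Bcl6b 0.973 and Enpp1 0.969). Kl, Avpr1a and Cdh12 had regions in the same pair of libraries as Dkk1, D6T− and D16S+, and r = 1.000. The libraries share differences in depth and overall signal, and the r values are given as a description.

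Of 66 other pathway genes, listed by role, 3 were higher and 3 lower in iPSCs than at D0 by 2-fold on the relative scale, of 61 with a region in either, near the 6.65% and 6.87% of all genes. In CPM, 14 were higher (15.5% of all genes) and 1 lower (3.1%). The higher ones on the relative scale were the ligand Wnt8a, which had no promoter region before D12S+ and then 1.02 CPM at D12S+, 1.7 in D16S+ and 1.05 in iPSCs, and the Frizzled receptors Fzd1 (2.48-fold) and Fzd9 (at least 2.3-fold). Fzd1 had 0.536 CPM at D0 and 3.41 in D3, and was higher than D0 in D3 (2.63-fold), D6T− (2.13-fold) and D16S+ (2.59-fold) as well. The lower ones were the ligand Wnt3a (0.446 of the D0 level), the β-catenin cofactor Bcl9l (0.375) and the ligand Wnt2, which had no region in iPSCs and so at most 0.426 of the D0 level. By relative level at D6T−, 1 was higher and 17 lower of 58 (2.33% and 13.7% of all genes), and 4 were higher and 11 lower of 61 in D16S+ (5.68% and 17%). In CPM the direction turned, with 41 higher at D6T− (80.5% of all genes), 32 in D16S+ (58.3%) and 0 lower in either. At D3, on the relative scale, 2 were higher and 11 lower of 63 (2.04% and 12.8% of all genes), the higher ones being Fzd1 and Myc (4.58-fold). A c-Myc transgene was among the infecting viruses, and its part in the Myc value was not tested.

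By role, the 19 ligands accounted for 11 of the 17 lower genes at D6T− on the relative scale. Their promoters were weak, with a median of 0.504 CPM at D0 and 0.888 in D6T−. In CPM 6 of the 16 tested were higher and 0 lower by 2-fold at D6T−, against 80.5% and 0.175% of all genes. Wnt7a, lower on the relative scale, had 0.662 CPM at D0 and 0.701 in D6T−. No ligand had a promoter region at D9T−, where 35.1% of all genes and 50.4% of protein-coding genes had one. The lowest call there was 0.53 CPM, above the D0 median of the ligands, so promoters this weak could be missed. All 6 genes of the destruction complex had a region in every library, as did 9818 of the 22367 protein-coding genes. In CPM 5 of the 6 were higher than D0 in D3, 6 in D6T−, 6 in D16S+ and 1 in iPSCs. On the relative scale only Csnk1a1 in D16S+ was (2.09-fold). Of the 9 other secreted inhibitors, 2 of 8 tested were higher in CPM at D3, 4 of 7 in D6T−, 2 of 8 in D16S+ and 0 of 8 in iPSCs. In CPM, 53.4%, 80.5%, 58.3% and 15.5% of all genes were higher in these comparisons. On the relative scale 0 of these inhibitors were higher, and Sfrp5, Wif1 and Notum were lower at both D3 and D6T− (12.8% and 13.7% of all genes). On the same scale Lgr4, a receptor of R-spondins, was 2.01-fold higher at D16S+, and Lgr6 was lower at D3, D6T− and D16S+ (0.362, 0.305 and 0.289 of D0). Between D6 siH3.3 and D6 siNT, 0 of 49 passed.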

How the data were processed

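ATAC-Seq peak files of 9 libraries, 1 per condition, were analysed. According to the study's methods, the authors mapped reads with STAR to mm9, dropped reads with many mismatches or several positions, removed duplicates with Picard and ran MACS2 2.1.0.20151222 on each library alone. Per the file headers there was no control, the q-value cutoff was 0.05 and tags of 51 bp were extended to 200 bp. The signal used is the deposited pileup, which counts extended tags at a summit. The deposited fold enrichment (a ratio to an even spread of tags) and the deposited −log10 p-value and q-value were read but not compared. Peaks on mitochondrial DNA were present in all 9 files, so the total tags include such reads.

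Summits of a peak were joined and overlapping peaks merged, per library and then across libraries where they shared at least 1 bp. Genes came from GENCODE vM1 (NCBIM37). Pileup was divided by total tags, and also by the median promoter of the library. The named genes are the 8 members, the 3 most alike genes of each, and other pathway genes where they passed 2-fold. The members and lists were chosen with earlier results of these data known. No test was possible with 1 library per condition. The alternatives were a smaller promoter, other scalings, equal numbers of regions, other thresholds and windows, shorter motifs and leaving out D9T−. Calculations used Python 3.11.15, numpy 2.4.6, pandas 2.3.3, scipy 1.17.1 and matplotlib 3.10.9, and the functions were tested on simulated data.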

Additional observations from a re-analysis of the deposited data

How the results depend on the processing

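Of 38 alternatives, 23 were rated as leaving the result the same, which for counts meant within 1.5 times the value. The share of regions with the motif CTTTGAT was not held to this limit. With 50 bp on each side of the summit it was 1.35%, against 3.38% in the main setting, and was still rated the same. With pileup over the library's median promoter, the number of genes changed by 2-fold against D0 was 0 at D3, 1 at D6T− and 0 at D16S+, in place of 5, 7 and 6. With the median of 2697 regions away from promoters, a scaling added after seeing the data, it was 1, 1 and 2, Sfrp1 being higher at D3 and D6T− and Sfrp1 and Lef1 at D16S+. Scaling thus set these counts. With the strongest regions alone, in equal numbers per library, it was 3 at D3, 3 at D16S+ and 0 in iPSCs, and with a threshold of 1.5 it was 3 in iPSCs (Tcf7, Lef1 and Sfrp1). The Lef1 call in iPSCs held under both scalings and the smaller promoter and was lost with equal numbers of regions. Regions called at D0 and not in iPSCs numbered 30 of 148, and 10 of 76 with equal numbers of regions (22.8% in the windows of protein-coding genes). Those of iPSCs alone numbered 53 of 148, and 33 of 76 (25.9%), a larger share than before. With a 2-fold relative difference, also added after seeing the data, they were 9 and 4 of 148. The share of regions with the shorter motif CTTTGA was 10.8%, against 12.4% of all regions. The count between the siRNA libraries was 0 under every alternative run, and 5 genes had a promoter region everywhere (4 with equal numbers of regions, without Sfrp1). No paired analysis was possible because each condition had 1 library. Depth limits absence: D9T−, with 13213117 tags, called regions from 0.53 CPM.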
